A study of Mus musculus with 9 samples.

Results

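The 9 genes described here encode homeobox transcription factors of the female reproductive tract: Msx1 and Msx2 of the MSX family, Emx2, the HoxA genes Hoxa9, Hoxa10, Hoxa11 and Hoxa13, and the HoxD genes Hoxd10 and Hoxd11. They were chosen by gene symbol, from a list drawn up with earlier results of these libraries known, and all 9 were found among the 31274 entries of the expression table. RNA was sequenced from whole uterus of C57BL/6 mice aged 6 to 10 weeks, collected on pseudopregnancy day (PPD) 4.5 after mating with vasectomized wild-type males, so that no embryo was present. There were 4 control mice with floxed Wnk1 alleles (Wnk1f/f) and 5 conditional knockout mice (Wnk1d/d) that carried the same floxed alleles and a Cre recombinase driven by the progesterone receptor gene Pgr (PgrCre/+), with 1 library for each mouse. The study gives the controls as floxed only, with no Cre allele named. Loss of Wnk1 and presence of the Pgr Cre allele therefore cannot be told apart in any comparison below. Cre removed exon 2 of Wnk1, which encodes a serine/threonine kinase. The study ascribes the WNK1 protein left in knockout uteri to cells without the progesterone receptor, namely those of immune and endothelial type. It names ovary and pituitary as further sites where this Cre acts. Replicate numbers come from the sample titles, and equal numbers in the 2 genotypes belong to different mice.

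Levels are FPKM as the authors deposited them, a measure of fragments that is already corrected for exon length and for library size. The number of fragments behind a value is not given, so depth is unknown and no counting interval could be drawn. The sum of FPKM over all entries ran from 570601 to 721540 in 8 libraries and was 2056715 in Wnk1d/d replicate 4, where 1 short entry took 70.3% of it. Median log2(FPKM + 1) over the tested genes was 3.79 to 3.82 in all 9 libraries. Of 4 reference genes, named here after their values were seen, Actb (log2 fold change 0.59, limma adjusted p = 0.0388), Gapdh (0.43, 0.0319) and Hprt (0.34, 0.0322) were called higher and Rplp0 was not (0.29, 0.112, and 0.0458 with library weights). Gapdh was listed at only 4.53 to 9.53 FPKM, far below Actb (542 to 1240 FPKM), and the reason was not tested. Actb was called only without Wnk1f/f replicate 2 or Wnk1d/d replicate 2 when a library was left out (otherwise limma adjusted p 0.0516 to 0.101), Gapdh not without Wnk1f/f replicate 2 or 4 or Wnk1d/d replicate 3, 4 or 5 (0.0531 to 0.0740), and Hprt only without Wnk1f/f replicate 3 or Wnk1d/d replicate 2 (otherwise 0.0606 to 0.0879). Their calls were also lost with the replicate block described below, for Actb (limma adjusted p = 0.0782) and Gapdh (0.0519) without the filter, and for Actb (0.0713) and Hprt (0.0554) with quantile normalization. Wnk1f/f replicate 4 stood apart in the 5 genes of a liver list, with a summed level of 144 FPKM against 3.10 to 8.94 in the other 8 libraries. The limma calls and the ratios below were also computed without each library, and a library is named where its omission changed the call of a named gene.

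Wnk1 itself was measured at 44.9, 43.4, 47.3 and 45.5 FPKM in Wnk1f/f replicates 1 to 4 and at 33.9, 29.9, 31.0, 30.2 and 31.3 FPKM in Wnk1d/d replicates 1 to 5. Every knockout library was below every control library. The mean level was 45.3 ± 1.62 FPKM (SD, n = 4) and 31.2 ± 1.62 FPKM (SD, n = 5), which is 31.0% lower in the knockouts (limma adjusted p = 0.00167, log2 fold change -0.52 with a standard error, SE, of 0.057). Exons outside the deletion contribute to this gene-level value. In whole tissue, fewer cells of a type and less RNA per cell cannot be told apart, here or for any gene below.

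Homeobox proteins bind DNA through a conserved homeodomain and set the identity of cells and body regions. HOX genes lie in 4 clusters, and along the developing female tract the 5′ HoxA genes are used in order: Hoxa9 marks the future oviduct, Hoxa10 the uterus, Hoxa11 the lower uterus and cervix, and Hoxa13 the upper vagina. In the adult uterus Hoxa10 and Hoxa11 are made in the stroma under progesterone, and females that lack either gene have defects of implantation and decidualization. Msx1 and Msx2 are made in the uterine epithelium before the embryo attaches, are normally shut down around attachment, and act redundantly in preparing the uterus for implantation. Emx2 is needed to form the Müllerian duct and is repressed by HOXA10 in the endometrium.

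The HOX members that were expressed fell in Wnk1d/d uteri, the low-level gene Msx2 rose, and Msx1 and Emx2 did not pass the test. A gene was tested where its mean FPKM was above 1 in at least 1 genotype, which held for 14728 genes and for 8 of the 9 members. Differences were fitted with limma on log2(FPKM + 1), so that the fold change understates the change of genes at low FPKM, and were called at an adjusted p under 0.05, with adjustment over all tested genes. By this rule 5 of the 8 tested members were lower (Hoxa9, Hoxa10, Hoxa11, Hoxd10 and Hoxd11), beside 11% of all tested genes called lower, and 1 was higher (Msx2), beside 11.1% of all tested genes called higher. When the genotype means had to differ by a factor of 1.5 as well, Hoxa11 alone remained among the lower members (5.18% of all tested genes) and Msx2 among the higher (5.09%). The libraries of the genotypes did not overlap for the same 5 lower members and for Msx2, and 10.6% and 9.27% of all tested genes had no overlap in these directions. The median log2 fold change was -0.48 over the 8 tested members and 0.0030 over all tested genes. The members were listed with results of these libraries known, and the study's own text names Msx2 from the same samples, so these counts are a description and not independent evidence of a direction. With the replicate number as a block, a fit that leaves out Wnk1d/d replicate 5, 220 of all tested genes were called and 0 members, with limma adjusted p from 0.0583 to 0.0877 for the 6 genes called without it and 0.0518 for Wnk1. Log2 fold changes with the block stayed close to those of the main fit. They were -0.57 for Hoxa9, -0.56 for Hoxa10, -0.62 for Hoxa11, -0.57 for Hoxd10, -0.40 for Hoxd11, 0.56 for Msx2 and -0.52 for Wnk1.

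**Figure D1:**
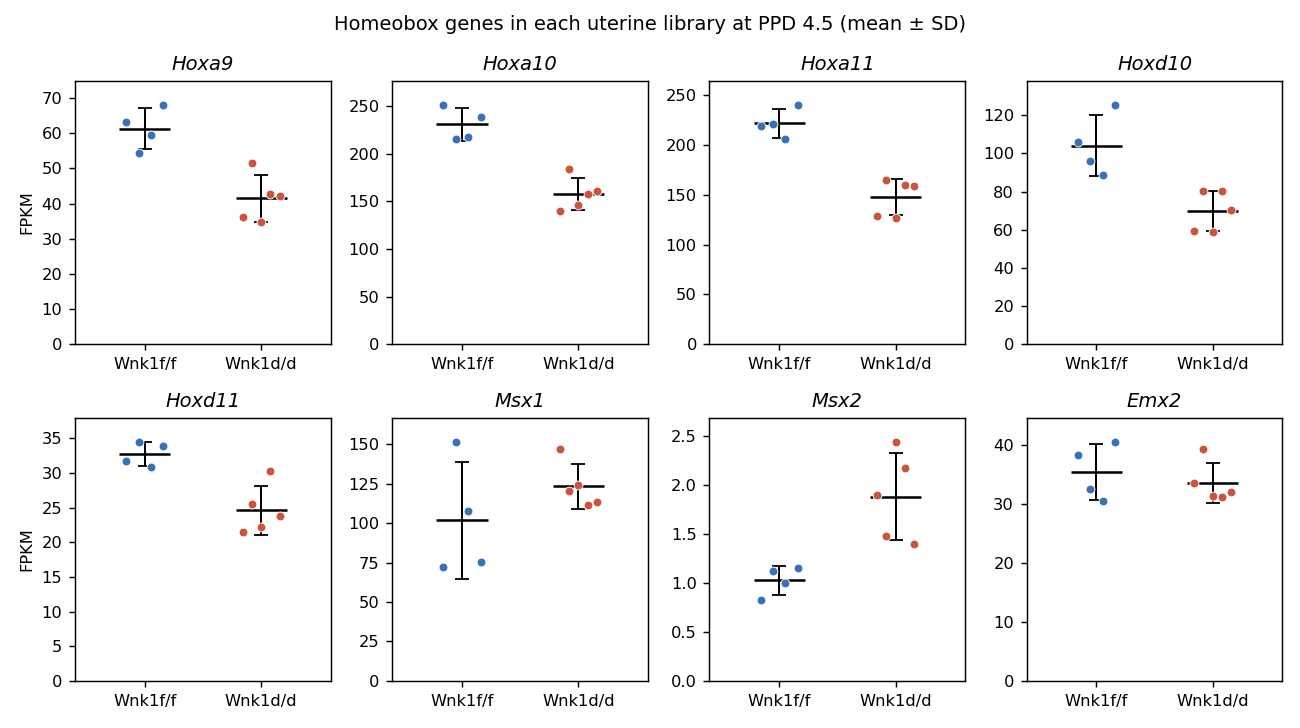
Level in FPKM (vertical axis, from 0) of the 8 tested homeobox genes in each uterine library on PPD 4.5. Points are mice (4 Wnk1f/f in blue, 5 Wnk1d/d in red), and bars are the mean ± SD. For the 5 HOX genes every Wnk1d/d point lies below every Wnk1f/f point, for Msx2 every Wnk1d/d point lies above, and for Msx1 and Emx2 the points overlap.

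Hoxa10, the uterine HoxA gene, was the most abundant member. It was measured at 251, 216, 218 and 238 FPKM in Wnk1f/f replicates 1 to 4 and at 140.2, 184, 146, 158 and 161 FPKM in Wnk1d/d replicates 1 to 5. No library of either genotype entered the range of the other, and Wnk1d/d replicate 2 was the highest of the knockouts. The mean fell from 231 ± 17.0 FPKM (SD, n = 4) to 158 ± 17.1 FPKM (SD, n = 5), a log2 fold change of -0.55 with a standard error of 0.092 (limma adjusted p = 0.00623). An exact two-sided permutation test over all ways to assign 4 and 5 libraries gave p = 0.00794, the smallest this design allows. On the build GRCm38 the gene spans 52231197 to 52240854 on the minus strand of chromosome 6 (GENCODE release M21).

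Hoxa11, its neighbour on the 5′ side, was measured at 219, 221, 205 and 240.0 FPKM in the controls and at 128, 165, 127, 159.5 and 158 FPKM in the knockouts. Again the highest knockout, replicate 2, stayed under the lowest control. The mean fell from 221 ± 14.2 FPKM (SD, n = 4) to 148 ± 18.4 FPKM (SD, n = 5), with a log2 fold change of -0.59 (SE 0.10, limma adjusted p = 0.00651, exact permutation p = 0.00794). The ratio of the means was 1.5, which places it at the edge of the fold criterion. Hoxa9, on the 3′ side of Hoxa10, was measured at 63.2, 54.4, 59.5 and 68.0 FPKM in the controls and at 36.2, 51.6, 34.8, 42.7 and 42.1 FPKM in the knockouts. Knockout replicate 2 came closest to the controls. The log2 fold change was -0.56 (SE 0.117, limma adjusted p = 0.0120, exact permutation p = 0.0159). Hoxa13, the vaginal member of the cluster, was listed at 0 in 8 libraries and at 0.050 FPKM in Wnk1d/d replicate 5, and it was not tested.

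The HoxD members moved the same way. Hoxd10, a paralogue of Hoxa10 best known from limb and motor neuron patterning, was measured at 106, 95.8, 88.6 and 125 FPKM in Wnk1f/f replicates 1 to 4 and at 59.2, 80.5, 58.7, 80.3 and 70.3 FPKM in Wnk1d/d replicates 1 to 5. Its log2 fold change was -0.57 (SE 0.133, limma adjusted p = 0.0178, exact permutation p = 0.00794). Hoxd11, which acts with Hoxa11 in the developing kidney and forelimb, was measured at 31.7, 34.5, 30.9 and 33.9 FPKM in the controls and at 21.5, 25.5, 22.2, 30.3 and 23.8 FPKM in the knockouts. Knockout replicate 4 lay just under the lowest control, replicate 3. The log2 fold change of Hoxd11 was -0.41 (SE 0.0974, limma adjusted p = 0.0195, exact permutation p = 0.0159), and the call was lost without Wnk1f/f replicate 4 (limma adjusted p = 0.0541). Without that library, which is the one with liver transcripts, 4 members were lower and 1 was higher. In that fit 1739 of 14654 genes were called in either direction, in place of 3249 of 14728.

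Promoter sequence is printed for 5 members that passed the test, to show what lies before the starts of genes that moved together and of the gene that moved the other way. RefSeq promoters on GRCm38.p6 were found for 9 of 9 members, in 11 windows of 250 bases that end at the base before the start site. For Hoxa10 and Hoxd11, with 2 start sites each, the window nearer the 3′ end of the gene is shown. Letters searched on both strands were the homeodomain core TAATTA (in 4.84% of 32851 promoter windows of this length), a joint PBX and posterior HOX site TGATTTAT (0.837%), a forkhead site TGTTTAC (3.17%), the CCAAT box CCAAT (33.8%) and the GC box GGGCGG (32.7%). Capitals mark each match on either strand. The windows of Hoxa10 (chr6:52234940-52235189, minus strand) and Hoxd10 (chr2:74691641-74691890, plus strand) each hold 1 CCAAT box, and that of Hoxa11 (chr6:52245811-52246060, minus strand) holds none of the motifs. The other window of Hoxa10, not shown, holds a GC box and no CCAAT box. Hoxa9 also passed the test and is not printed, and its window holds 1 GC box and no CCAAT box. The window of Hoxd11 (chr2:74682073-74682322, plus strand) holds a GC box and the homeodomain core. That of Msx2 (chr13:53472781-53473030, minus strand) holds the homeodomain core, a GC box and a CCAAT box. The homeodomain core was found in 3 of the 11 windows, both of Hoxd11 and that of Msx2, so in 2 of 9 members, and a match describes letters only, not binding.
Hoxa10: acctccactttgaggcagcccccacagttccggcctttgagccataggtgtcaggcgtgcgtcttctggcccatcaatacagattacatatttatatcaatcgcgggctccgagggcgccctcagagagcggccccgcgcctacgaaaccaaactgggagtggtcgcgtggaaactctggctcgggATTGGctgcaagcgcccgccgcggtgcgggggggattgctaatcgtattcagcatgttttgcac
Hoxa11: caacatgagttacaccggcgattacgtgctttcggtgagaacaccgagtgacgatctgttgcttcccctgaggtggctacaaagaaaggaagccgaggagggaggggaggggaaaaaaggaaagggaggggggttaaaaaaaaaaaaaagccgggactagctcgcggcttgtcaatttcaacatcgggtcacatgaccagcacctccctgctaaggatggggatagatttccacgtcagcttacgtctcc
Hoxd10: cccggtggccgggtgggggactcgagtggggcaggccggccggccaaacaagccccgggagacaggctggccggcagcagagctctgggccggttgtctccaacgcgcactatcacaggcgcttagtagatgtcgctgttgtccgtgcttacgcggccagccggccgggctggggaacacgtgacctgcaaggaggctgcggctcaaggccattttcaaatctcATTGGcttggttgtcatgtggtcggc
Hoxd11: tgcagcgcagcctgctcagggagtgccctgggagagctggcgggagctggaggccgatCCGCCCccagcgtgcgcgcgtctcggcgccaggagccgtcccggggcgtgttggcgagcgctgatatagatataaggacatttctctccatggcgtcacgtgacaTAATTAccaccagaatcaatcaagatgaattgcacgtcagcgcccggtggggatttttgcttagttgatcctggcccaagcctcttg
Msx2: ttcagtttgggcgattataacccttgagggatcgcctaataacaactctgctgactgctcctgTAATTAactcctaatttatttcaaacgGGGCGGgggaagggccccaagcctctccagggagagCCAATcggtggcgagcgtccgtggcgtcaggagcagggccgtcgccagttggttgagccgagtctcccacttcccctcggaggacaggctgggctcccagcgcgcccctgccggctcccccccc

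Msx2 was barely expressed and was the member that rose. It was measured at 0.83, 1.12, 1.0 and 1.15 FPKM in Wnk1f/f replicates 1 to 4 and at 1.90, 1.48, 2.44, 2.17 and 1.4 FPKM in Wnk1d/d replicates 1 to 5. All 5 knockout libraries lay above all 4 controls, and the lowest knockout was replicate 5. The mean went from 1.02 ± 0.145 FPKM (SD, n = 4) to 1.88 ± 0.444 FPKM (SD, n = 5), a ratio of 1.83. Its log2 fold change was 0.50 (SE 0.129, limma adjusted p = 0.0255, exact permutation p = 0.0159). The call was lost without Wnk1f/f replicate 1 (limma adjusted p = 0.0631), Wnk1d/d replicate 3 (0.0578) or Wnk1d/d replicate 4 (0.0562). The control mean sits next to the limit of 1 FPKM for testing, and the gene was not tested when that limit was set at 5.

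Msx1, the partner of Msx2 in the uterine epithelium, was expressed at a far higher level. It was measured at 72.0, 152, 108 and 75.4 FPKM in the controls and at 147, 120.1, 124, 111 and 113 FPKM in the knockouts. The controls spread widely, replicate 2 above every knockout and replicates 1, 3 and 4 below every knockout. The log2 fold change was 0.33 (95% interval -0.12 to 0.79, limma adjusted p = 0.254). Without Wnk1f/f replicate 2 it was 0.55, and Msx1 then passed as higher (limma adjusted p = 0.0393), so that 2 members were higher. RefSeq places the antisense gene Msx1os within the span of Msx1, and the strandedness of the libraries is not stated, so fragments of either gene may count for the other. Msx1os had 5.67 to 12.5 FPKM in the controls and 9.09 to 13.4 FPKM in the knockouts and did not pass (log2 fold change 0.24, limma adjusted p = 0.391).

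Emx2 was measured at 38.3, 32.6, 30.5 and 40.6 FPKM in the controls and at 33.5, 39.4, 31.3, 31.2 and 32.1 FPKM in the knockouts. The 2 ranges lay over each other. The log2 fold change was -0.08, with a 95% interval of -0.31 to 0.15 (limma adjusted p = 0.609). Its antisense neighbour Emx2os, by contrast, fell from 4.25 to 5.26 FPKM in the controls to 2.88 to 3.84 FPKM in the knockouts (log2 fold change -0.42, SE 0.092, limma adjusted p = 0.0146). The exons of the pair share 264 bases on opposite strands, 8.79% of the exonic bases of Emx2. The difference between Emx2 and Emx2os was not tested.

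Ranked by mean FPKM, which is corrected for gene length, the control order was Hoxa10, Hoxa11, Hoxd10, Msx1, Hoxa9, Emx2, Hoxd11, Msx2 and Hoxa13. Within it the libraries of Hoxa10 and Hoxa11, of Hoxd10 and Msx1, and of Emx2 and Hoxd11 overlapped, so these neighbours did not differ beyond their spread. In the knockouts Msx1 followed Hoxa11 and came ahead of Hoxd10, and all 5 knockout libraries had more Msx1 than Hoxd10, against 2 of the 4 controls. There the ranges of Hoxa10 and Hoxa11, Hoxa11 and Msx1, and Hoxa9 and Emx2 overlapped, with the first of each pair higher in 4, 4 and all 5 libraries.

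Whether related members changed to a different degree was asked with 4 ratios taken within each library, each an exact two-sided permutation test of the difference in log2 ratio. Hoxa11 over Hoxa10 differed by -0.04 (95% interval -0.20 to 0.12, exact permutation p = 0.532) and Hoxa10 over Hoxa9 by 0.01 (-0.13 to 0.15, p = 0.833). These adjacent genes therefore kept ratios that were alike in the 2 genotypes to within the stated intervals. Hoxd11 over Hoxd10 differed by 0.16 (-0.08 to 0.41, exact permutation p = 0.159), and 3 of 5 knockouts lay above all controls. Msx2 over Msx1 differed by 0.16 (-0.40 to 0.72, exact permutation p = 0.508), so a difference in the response of the MSX genes was not shown, although Msx2 was called and Msx1 was not. The pseudocount of 1 compresses Msx2, which lies near 1 FPKM, and with 0.1 the difference was 0.46 (exact permutation p = 0.333 after adjustment over the 4 ratios). Adjusted over the 4 ratios by the Benjamini-Hochberg method, p was 0.635 to 0.833. Msx2 over Msx1 changed sign without Wnk1f/f replicate 2, and Hoxa10 over Hoxa9 changed sign without Wnk1f/f replicate 3 or 4 or Wnk1d/d replicate 3, all within the intervals above.

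**Figure D2:**
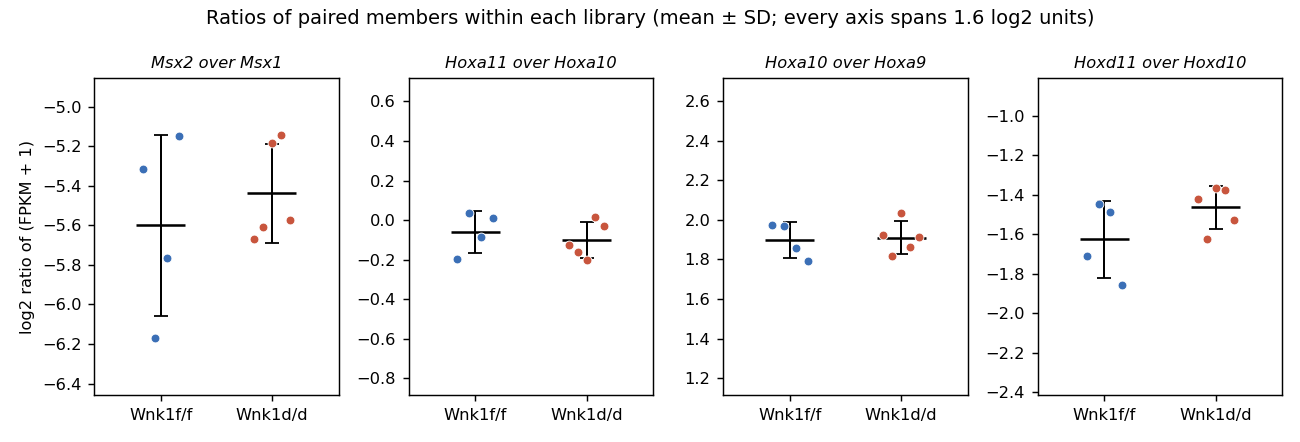
Log2 ratio of FPKM + 1 of paired members within each library (vertical axis, every axis spanning the same length). Points are mice (4 Wnk1f/f in blue, 5 Wnk1d/d in red), and bars are the mean ± SD. The genotypes overlap in all 4 ratios.

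The members were then placed among all 39 HOX genes of the 4 clusters. Of the 24 tested, 9 fell, 0 rose and 15 did not pass, with a median log2 fold change of -0.16, where 11% of all tested genes were called lower and 11.1% higher. The 9 include the 5 members called lower, which were listed with results of these data known, so this count partly repeats that choice. At an unadjusted limma p under 0.05 the counts were also 9 lower and 0 higher. The share of all tested genes at that threshold is at least as large as at the adjusted one. It is not given, here or for the lists below. By cluster, 3 of 8 tested HoxA genes, 1 of 8 HoxB genes, 0 of 2 HoxC genes and 5 of 6 HoxD genes fell, and the HoxB count is near the share of all tested genes. The HoxB gene was Hoxb9, a paralogue of Hoxa9 with 5.21 to 6.69 FPKM in the controls and 2.64 to 4.77 FPKM in the knockouts (log2 fold change -0.66, limma adjusted p = 0.0120). Hoxd4 (log2 fold change -0.78, limma adjusted p = 0.0216), Hoxd8 (-0.35, 0.0327) and Hoxd9 (-0.41, 0.0238) completed the 9, and these 3 are named outside the naming rule, after their values were seen. Without Wnk1f/f replicate 4 the count was 5, without Wnk1d/d replicate 3 it was 6 and without Wnk1d/d replicate 2 it was 10. All called genes in these fits numbered 1739, 1800 and 4216, in place of 3249. Hoxd4 was not called without Wnk1d/d replicate 3 (limma adjusted p = 0.0547) or Wnk1f/f replicate 4 (0.0616), and Hoxd9 not without Wnk1d/d replicate 3 (0.0526) or Wnk1f/f replicates 2 (0.0570) or 4 (0.0633). Hoxd8 was not called without Wnk1d/d replicate 3 (0.0749) or Wnk1f/f replicates 1 (0.0646), 3 (0.0584) or 4 (0.0909).

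Along HoxA, taken in chromosome order toward Hoxa13, both the high levels and the called genes began at Hoxa9. Hoxa4 had means under 1 FPKM in each genotype and was not tested. Hoxa2, Hoxa3, Hoxa5, Hoxa6 and Hoxa7, which pattern more anterior body levels, had means of 0.91 to 3.37 FPKM and did not pass, with log2 fold changes from -0.18 to 0.10 and limma adjusted p from 0.403 to 0.900. The next gene, Hoxa9, had a mean level 46.8-fold that of Hoxa7 in controls and 28.3-fold in knockouts, and Hoxa9, Hoxa10 and Hoxa11 all fell. Hoxa13, beyond them, was at or near 0. The directions of the uncalled Hoxa2 and Hoxa5 changed with the library left out, for Hoxa2 without Wnk1f/f replicate 1 (log2 fold change 0.07) or Wnk1d/d replicate 4 (0.02), and for Hoxa5 without Wnk1f/f replicate 1 (0.10), Wnk1d/d replicate 1 (0.02) or Wnk1d/d replicate 3 (0.03), and that of Hoxa5 also with library weights (0.04). The pseudocount compresses fold changes at such levels. Without it, the ratio of mean FPKM, knockout over control, was 0.943 for Hoxa2, 0.849 for Hoxa3, 0.971 for Hoxa5, 0.763 for Hoxa6 and 1.12 for Hoxa7, and 0.677, 0.684 and 0.667 for Hoxa9, Hoxa10 and Hoxa11. The difference in response between these genes and Hoxa9 to Hoxa11 was not tested, and the 95% intervals of Hoxa2 (-0.36 to 0.27), Hoxa3 (-0.51 to 0.16), Hoxa5 (-0.41 to 0.34) and Hoxa6 (-0.52 to 0.16) overlap that of Hoxa10 (-0.76 to -0.34), while that of Hoxa7 (-0.29 to 0.49) lies above it.

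Across the 4 clusters, 7 of 7 tested genes of paralogue groups 9 to 13 fell, against 2 of 17 tested genes of groups 1 to 8, a split made after the values were seen and given without a test. The 7 include the members Hoxa9, Hoxa10, Hoxa11, Hoxd10 and Hoxd11, which were listed with results of these data known. A further 9 of the 16 genes of groups 9 to 13 were not tested. The count in groups 1 to 8 is near the 11% of all tested genes called lower. The summed level of the 39 HOX genes was 1035 ± 40.9 FPKM (SD, n = 4) in controls and 789 ± 71.3 FPKM (SD, n = 5) in knockouts. Hoxa10 and Hoxa11 together made up 41.8% to 45.2% of this sum in the controls and 37.3% to 40.0% in the knockouts.

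**Figure D3:**
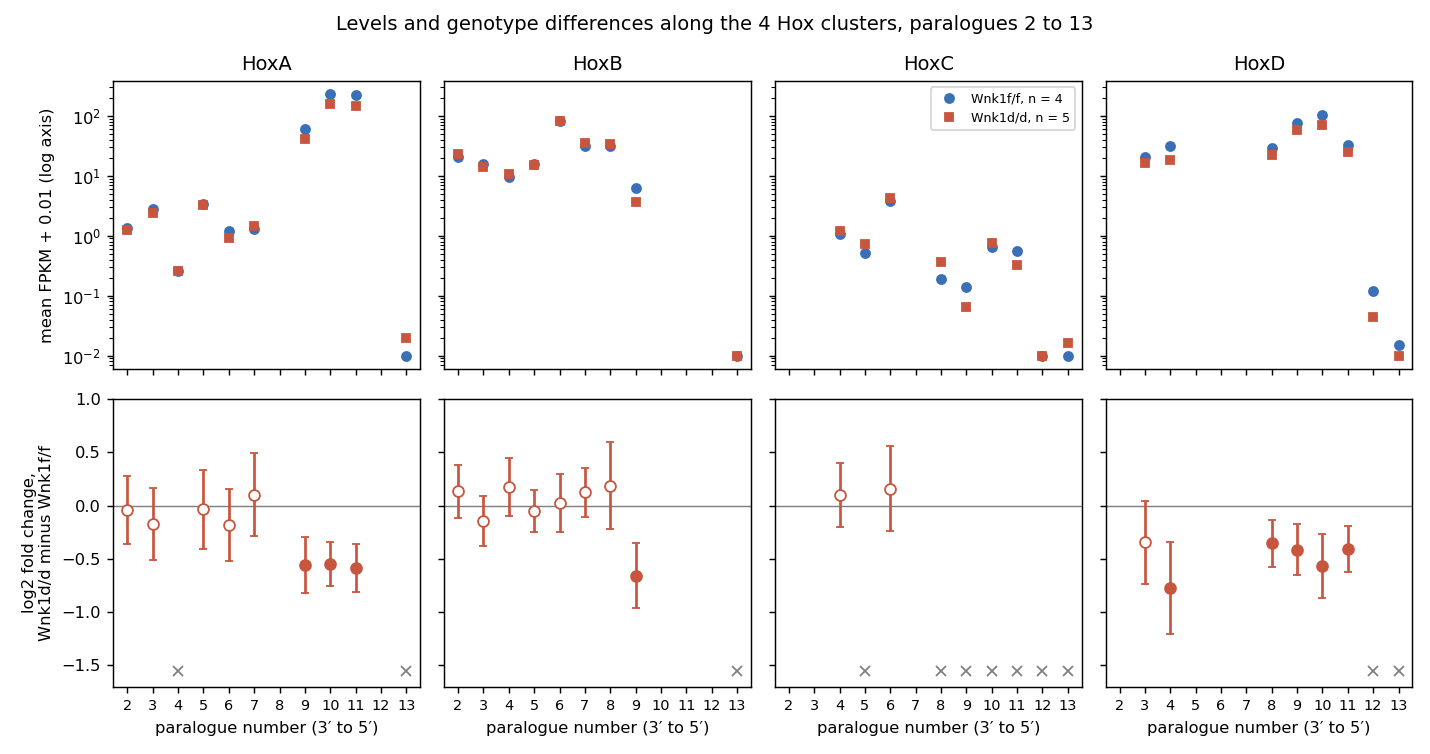
Upper panels: mean FPKM + 0.01 (log axis) of the HOX genes with paralogue numbers 2 to 13 (horizontal axis) for the 4 clusters, Wnk1f/f (n = 4) as blue circles and Wnk1d/d (n = 5) as red squares. Lower panels: log2 fold change with its 95% interval, filled where the adjusted p was under 0.05, with crosses for genes that were not tested. Filled points are Hoxa9 to Hoxa11, Hoxb9, Hoxd4 and Hoxd8 to Hoxd11, all below 0.

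Of 16 listed noncoding genes of the clusters and of Emx2, 10 were in the table and 4 were tested. By limma adjusted p 2 fell, 0 rose and 2 did not pass, beside 11% lower and 11.1% higher of all tested genes. The counts were the same at an unadjusted limma p under 0.05, for which no share of all tested genes is given. Emx2os, on chromosome 19, was 1 of the 2 that fell, and of 3 tested in the clusters Hoxa11os fell. Mir196a-1 was listed at 0 in 5 libraries and at up to 215 FPKM in the others, and did not pass (limma adjusted p = 0.448). Hoxa11os, the antisense RNA that overlaps Hoxa11, was more abundant than any member. It was measured at 670.3, 739.7, 552 and 594 FPKM in the controls and at 312, 420.3, 241, 439.9 and 329.8 FPKM in the knockouts. All knockouts lay below all controls (log2 fold change -0.90, SE 0.178, limma adjusted p = 0.0104). Hoxa11 and Hoxa11os share 800 exonic bases on opposite strands, 35.0% of the exonic bases of Hoxa11 and 26% of those of Hoxa11os. Without strand information the level and the fall of Hoxa11 and of Hoxa11os cannot be told apart over that stretch. Hoxa10 has no such antisense exon in the annotation, while Hoxa9 shares 85 bases with Mir196b, listed at 0 in all 9 libraries, and Hoxd10 and Hoxd11 share 104 and 455 bases with a transcript on their own strand that is not in the table.

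HOX proteins gain binding specificity from partners of the PBX, MEIS and PKNOX families, and all 9 listed partners were tested. Pbx3 rose, Meis3 and Pbx2 fell, and 6 did not pass, where 11.1% of all tested genes were called higher and 11% lower. With 9 genes, the 1 that rose is no more than that background. Meis3 had 22.2 to 31.9 FPKM in the controls and 15.1 to 21 FPKM in the knockouts (log2 fold change -0.56, SE 0.124, limma adjusted p = 0.0149). Pbx3 had 3.20 to 4.23 FPKM and 4.43 to 5.92 FPKM (log2 fold change 0.44, limma adjusted p = 0.0200), a call lost without Wnk1d/d replicate 3 (0.0512) or Wnk1f/f replicate 4 (0.0582). Pbx2 changed little (log2 fold change -0.20, limma adjusted p = 0.0481), and its call was lost with median scaling (0.0606), without the limma trend (0.0585) and without any 1 library except Wnk1d/d replicate 4 (0.0581 to 0.105). Without Wnk1f/f replicate 1, 2 partners were higher. The median log2 fold change of the 9 was -0.18.

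Of 52 other homeobox genes, 25 were tested, and 3 rose, 5 fell and 17 did not pass, with a median log2 fold change of -0.08. Of all tested genes 11.1% were called higher and 11% lower, so the number that rose is near the background. The largest change was the fall of Hhex, a factor of endothelium and foregut, from 13.3 to 17.7 FPKM in controls to 4.63 to 9.26 FPKM in knockouts (log2 fold change -0.97, limma adjusted p = 0.00749). Satb1, a chromatin organizer, fell (log2 fold change -0.62, limma adjusted p = 0.00846), as did Tgif2 (-0.42, 0.00908), a repressor of TGF-β responses, and Hmbox1 (-0.41, 0.0104). Prrx1, a mesenchymal factor, rose (log2 fold change 0.60, limma adjusted p = 0.0104), and so did Cux1 (0.35, 0.00591). Outside the naming rule, Pax8, a factor of Müllerian epithelium, rose (0.60, limma adjusted p = 0.0265) and Tgif1 fell (-0.42, 0.0274). Pax8 was not called without Wnk1d/d replicate 1 or 3 or Wnk1f/f replicate 1 or 4 (limma adjusted p 0.0525 to 0.0739), and Tgif1 not without Wnk1d/d replicate 3 or 5 or Wnk1f/f replicate 1, 2 or 4 (0.0526 to 0.0698). The closest MSX and EMX relatives, Msx3 and Emx1, had at most 0.050 FPKM.

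**Figure D4:**
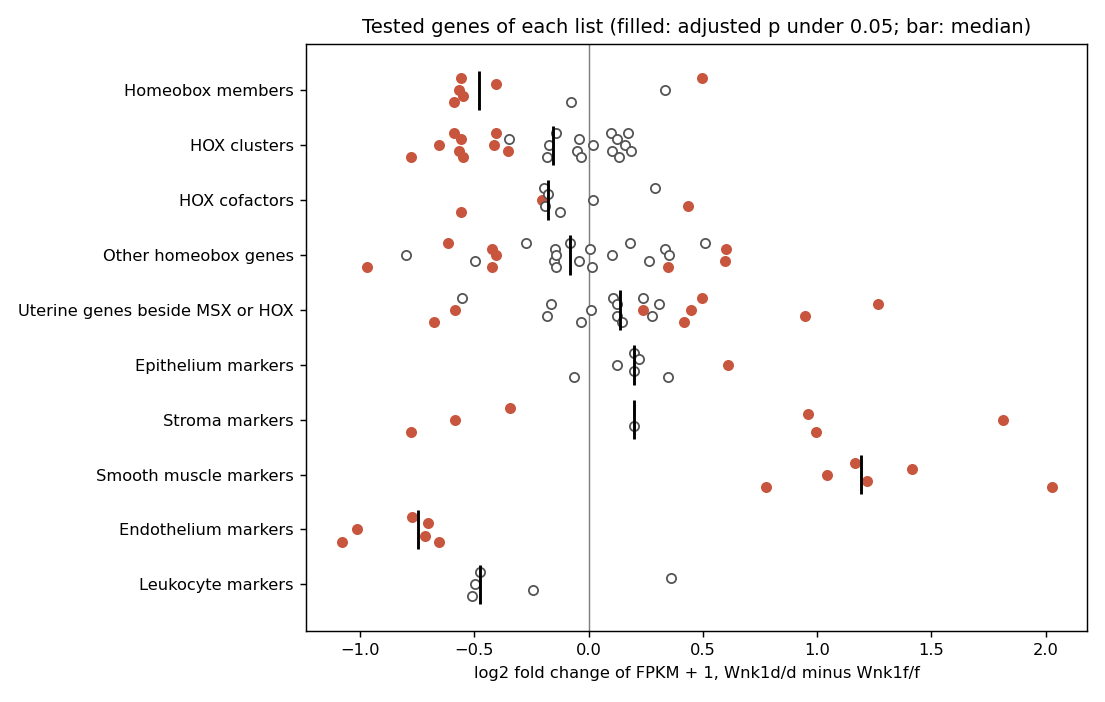
Log2 fold change of FPKM + 1, Wnk1d/d minus Wnk1f/f (horizontal axis), of the tested genes of each list. Each point is a gene, filled where the limma adjusted p was under 0.05, and bars are list medians. The members' median is -0.48, all 6 endothelium markers lie below 0 and all 6 smooth muscle markers above.

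Genes known to act beside MSX or HOX in the uterus were listed from background knowledge, and 20 of 22 were tested: 6 rose, 2 fell and 12 did not pass (median log2 fold change 0.14). The share called among all tested genes was 11.1% higher and 11% lower, and the number that fell is near it. Lif, the cytokine that permits implantation, rose most, from 1.70, 3.17, 3.38 and 2.45 FPKM in the controls to 8.5, 5.6, 7.94, 7.92 and 8.86 FPKM in the knockouts. All knockouts lay above all controls (log2 fold change 1.27, SE 0.164, limma adjusted p = 0.00269). Bmp7, a BMP ligand of the uterus, fell from 19.5 to 22.1 FPKM in the controls to 11 to 15.7 FPKM in the knockouts (log2 fold change -0.68, limma adjusted p = 0.00389). The HOXA10 target Itgb3, which encodes an integrin subunit of the receptive endometrium, rose (0.42, limma adjusted p = 0.00571). Hand2, a progesterone-induced stromal factor that restrains fibroblast growth factors, fell (-0.58, limma adjusted p = 0.0291). Of the listed growth factors, Fgf1 rose (0.95, limma adjusted p = 0.0284), Fgf9 had means of 2.91 and 1.66 FPKM in controls and knockouts and did not pass (-0.55, 0.0639), though all knockouts lay below all controls and it passed with library weights (0.0324), and Fgf18, with 0.845 and 0.692 FPKM, was not tested. The prostaglandin receptor gene Ptger3 rose as well (0.50, limma adjusted p = 0.0308).

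Several of these calls rested on particular libraries. With 1 library left out, 2 to 5 genes of this list were called higher, in place of 6, and 1 to 3 lower, in place of 2. Fgf1 was not called without Wnk1f/f replicate 2, 3 or 4 or Wnk1d/d replicate 1 or 5 (limma adjusted p 0.0509 to 0.0783), and Hand2 not without Wnk1f/f replicate 1, 2 or 4 or Wnk1d/d replicate 3 or 5 (0.0575 to 0.0703). Ptger3 was not called without Wnk1f/f replicate 2, 3 or 4 or Wnk1d/d replicate 1, 4 or 5 (limma adjusted p 0.0524 to 0.0803). Outside the naming rule, Wnt5a, a Wnt ligand linked to MSX function, rose (log2 fold change 0.45, limma adjusted p = 0.0337) but not without Wnk1f/f replicate 1 or 4 or Wnk1d/d replicate 1, 3 or 5 (0.0695 to 0.0921). The study names Wnt5a from the same samples. Foxo1 had a log2 fold change of 0.24 (limma adjusted p = 0.0493) and was called without Wnk1f/f replicate 1 or Wnk1d/d replicate 3 but not without any other library (0.0628 to 0.130), and its call was also lost with a pseudocount of 0.1 (0.0502), without the filter (0.0556), with median scaling (0.0505), with quantile normalization (0.0842), with library weights (0.0597) and without the limma trend (0.0577). The receptor genes Pgr (12.7 to 21.8 FPKM) and Esr1 (34.5 to 57.2 FPKM) did not pass, with log2 fold changes of 0.11 (limma adjusted p = 0.656) and 0.28 (0.128).

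Genes whose pattern was most like that of a member were taken from all tested genes, by Pearson correlation of log2(FPKM + 1) over the 9 libraries after each genotype mean was subtracted. For Hoxa10 these were P2rx2 (r = 0.98), Mef2a (0.98), Nxpe2 (0.97), Runx2 (0.96) and Mit1/Lb9 (0.96). Among the members, Hoxa9 followed Hoxa10 most closely (r = 0.91), ahead of Hoxd10 and Hoxa11 (0.77 each), the uncalled Emx2 (0.73) and Hoxd11 (0.37), while Msx1 and Msx2 ran the other way (-0.61 and -0.62). Replicate 2 was the highest knockout library for Hoxa9, Hoxa10, Hoxa11, Hoxd10 and Emx2 alike. For Msx2 the nearest genes were Ddx56 (r = 0.93), Bfsp1 (0.91), Ece2 (0.90), Ppme1 (0.90) and 9130019O22Rik (0.90), while Msx1 had r = 0.21. These values describe 9 libraries of unknown depth and carry no test.

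Markers of the cell types of the uterus moved with the genotype as well, beside 11.1% of all tested genes called higher and 11% called lower. All 6 endothelium markers fell, and their summed level was 331, 367, 351 and 349.7 FPKM in Wnk1f/f replicates 1 to 4 and 131, 266, 173, 227 and 216 FPKM in Wnk1d/d replicates 1 to 5, with Pecam1 the most abundant. The sum was highest in the same knockout library, replicate 2, as Hoxa9, Hoxa10, Hoxa11 and Hoxd10. Among the controls its order was the reverse of that of Hoxa10. There Hoxa10 was highest in Wnk1f/f replicate 1 (251 FPKM), where the sum was lowest, and lowest in replicate 2 (216 FPKM), where the sum was highest. The 6 markers had r of 0.58 to 0.82 with Hoxa10 over the 9 libraries after genotype means were subtracted. The same measure was -0.31 to 0.63 for the 7 stroma markers, -0.22 to 0.11 for smooth muscle and -0.77 to 0.04 for epithelium. All 6 smooth muscle markers rose, from summed levels of 6372, 4108, 5236 and 2797 FPKM to 9476, 7209.7, 10758, 13655 and 13107 FPKM, led by Tagln. The 7 stroma markers divided, with Lum, Col1a1 and Col6a3 higher, Pdgfra, Hand2 and Nr2f2 lower, and the most abundant, Dcn, not past the test. Their sum was 1343, 996, 1278 and 1219.9 FPKM in the controls and 1806, 1671, 1906, 1456 and 1812 FPKM in the knockouts. No marker of these 3 lists was at 0 in all libraries, and their part in the fall of the HOX genes was not tested.

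Epithelium, where the MSX genes are made, gave summed levels of 706, 1064, 839 and 737 FPKM in the controls and 1206, 993, 966, 833 and 753 FPKM in the knockouts, which overlap. Krt18 was the most abundant of the 7 markers, none was at 0, and Cldn7 rose (log2 fold change 0.61, limma adjusted p = 0.0404; 11.1% of all tested genes were higher) while 6 did not pass. The lowest Msx1 values, in Wnk1f/f replicates 1 and 4, fell in the same libraries as the lowest epithelium sums, and the highest, in Wnk1f/f replicate 2, in the highest control sum, and the part of epithelium content in the Msx1 values was not tested. Leukocyte markers (5 of 6 in the table, Cd68 most abundant, none at 0 in all libraries) had sums of 50.9, 54.2, 73.5 and 99.8 FPKM and of 69.4, 60.3, 59.4, 41.8 and 60.5 FPKM, with 0 called by limma and 1 lower at an unadjusted p under 0.05. Without Wnk1f/f replicate 1, 1 leukocyte marker was called lower. Cldn7 was not called without Wnk1f/f replicate 1 or 4 or Wnk1d/d replicate 1, 3 or 4 (limma adjusted p 0.0633 to 0.104), nor without the filter (0.0596), with quantile normalization (0.0638) or with library weights (0.0532).

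Single marker calls of the other lists also varied. Kdr was not called without any 1 library except Wnk1d/d replicates 1 and 2 (limma adjusted p 0.0582 to 0.0949), and Pecam1 not without Wnk1f/f replicate 1, 2 or 4 or Wnk1d/d replicate 3 (0.0503 to 0.0664). Myh11 and Tagln were each not called without Wnk1f/f replicate 2 or 4 or Wnk1d/d replicate 3, 4 or 5 (limma adjusted p 0.0708 to 0.0885 and 0.0530 to 0.0628). Without the filter Kdr (0.0572), Myh11 (0.0590) and Tagln (0.0999) were not called by limma adjusted p, nor was Myh11 with quantile normalization (0.0651). The other endothelium and smooth muscle markers (Cdh5, Vwf, Tek, Emcn, Acta2, Actg2, Cnn1 and Des) kept their calls without each library.

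**Figure D5:**
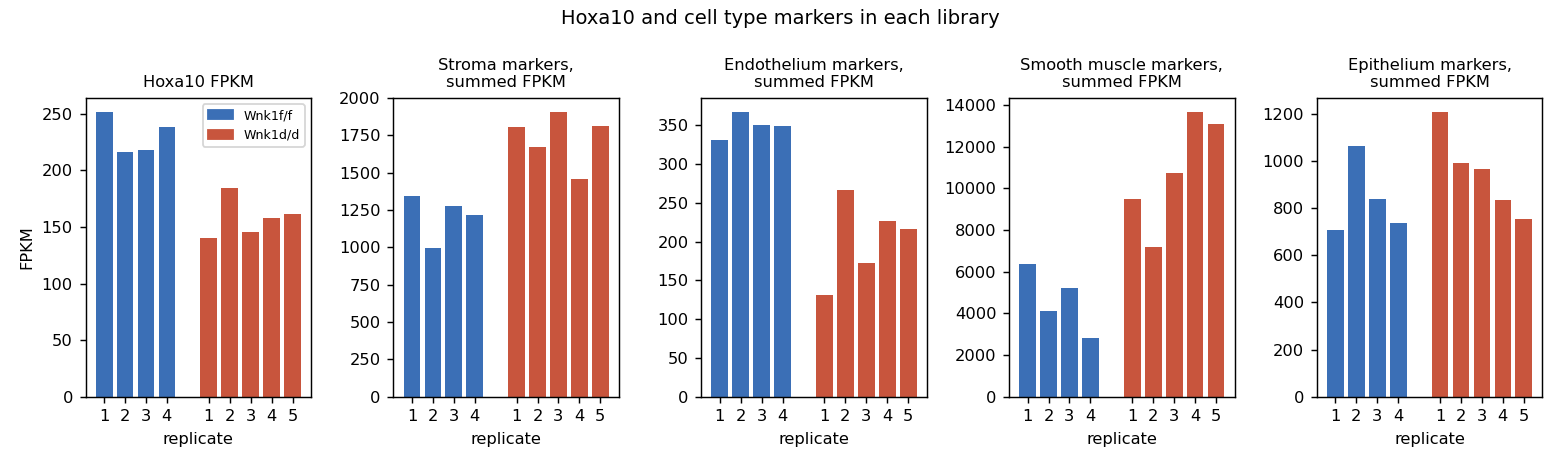
FPKM of Hoxa10 and summed FPKM of 4 marker lists (vertical axes, from 0) in each library, by replicate number (horizontal axes), with Wnk1f/f in blue and Wnk1d/d in red. Hoxa10 and the endothelium sum are lower in all knockouts and highest among them in replicate 2, while among the controls their orders are reversed. The smooth muscle and stroma sums are higher in all knockouts, and the epithelium sums overlap.

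The label of whole uterus was checked against neighbouring tissues. All 7 markers of stratified epithelium, as found in cervix and vagina, had means under 1 FPKM, with sums of 0.86 to 3.69 FPKM and Dsg3 the highest, and Hoxa13 was at or near 0 in the same libraries. None was tested. Every knockout lay above every control in Krt5 (0.28 to 0.50 against 0.07 to 0.15 FPKM) and Krt14 (0.44 to 1.46 against 0.07 to 0.35 FPKM) and below every control in Trp63 (0.07 to 0.35 against 0.37 to 1.03 FPKM), genes named after their values were seen. The directions thus differed within the list. Among the tested genes, which exclude these, 9.27% lay wholly above and 10.6% wholly below the controls. With no filter on low values 2 of the 7 were called higher by limma, and without Wnk1d/d replicate 2 there was 1. Of 6 markers of the ciliated oviduct epithelium, 4 had means under 1 FPKM (sums 5.89 to 10.7 FPKM, Rsph1 the most abundant), while Rsph1 rose (log2 fold change 0.61, limma adjusted p = 0.0307) and Ccdc39 fell (-0.37, 0.0395). With 2 tested, that is 1 each way, beside 11.1% of all tested genes called higher and 11% lower. Rsph1 was not called without Wnk1f/f replicate 4 or Wnk1d/d replicate 4 or 5 (limma adjusted p 0.0605 to 0.0686) or without the filter (0.0505), and Ccdc39 not without any 1 library except Wnk1f/f replicate 2 and Wnk1d/d replicate 2 (0.0584 to 0.0947). Ovary markers had sums of 15.7 to 21.6 FPKM in 8 libraries and 38.5 FPKM in Wnk1d/d replicate 3, led by Inha, with 0 of 3 tested called by limma and 0 at an unadjusted p under 0.05. The liver list gave 0 of 5 called by limma and 0 at an unadjusted p under 0.05, with Alb at 77.7 FPKM in Wnk1f/f replicate 4 and at most 1.5 FPKM elsewhere. Without Wnk1f/f replicate 4 the 4 members Hoxa9, Hoxa10, Hoxa11 and Hoxd10 were still called lower and Msx2 higher.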

How the data were processed

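The authors aligned reads to mm10 with TopHat2 2.0.4 and deposited FPKM per gene from Cufflinks (version 2.0.2 per the labels) for 9 libraries. The annotation they used and the strandedness are not stated. From the deposited FPKM, log2(FPKM + 1) was fitted with limma 3.58.1 in R 4.3.3 (lmFit, eBayes with trend, unpaired) for the 14728 genes with mean FPKM above 1 in at least 1 genotype, with Benjamini-Hochberg adjustment and a threshold of 0.05, two-sided. The fit was tested on simulated data. Exact two-sided permutation tests and the rest used Python 3.11.15, NumPy 2.4.6, pandas 2.3.3 and SciPy 1.17.1. Intervals of ratios invert that test. Positions are from GENCODE release M21 and promoters from RefSeq.

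The members and lists were chosen with earlier results of these data known. The naming rule takes all members, the HoxA genes, up to 6 called genes of each list by smallest p, and the 5 genes most like Msx2 and Hoxa10. Alternatives were a pseudocount of 0.1, no filter, mean FPKM above 5, quantile normalization, scaling to equal medians, limma with library weights, with robust estimation or without its trend, a block for replicate number, and the omission of each library in turn. No sample was left out otherwise. Some listed genes are counted in list totals but not described.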

Additional observations from a re-analysis of the deposited data

Results flagged for a closer look

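In 165 groups of 4 or 5 libraries (79 genes and 4 ratios by genotype), the highest or lowest library was set against the nearest of the others with Dixon's 95% values. Chance gives about 1 in 20, and 12 values stood out. The controls of Hoxa13, all at 0, were not examined. Among the members, Emx2 was 39.4 FPKM in Wnk1d/d replicate 2, and the other knockouts had 31.2 to 33.5 FPKM. Hoxa13 was 0.050 FPKM in Wnk1d/d replicate 5 and 0 in the other knockouts, where any value above 0 would have stood out by this rule. Hoxa2, lower in the HoxA cluster, was 1.90 FPKM in Wnk1f/f replicate 1 and 1.07 to 1.15 FPKM in the other controls.

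Of the uterine genes, Lif was 5.6 FPKM in Wnk1d/d replicate 2, under the 7.92 to 8.86 FPKM of the remaining knockouts, and Bmp7 was 15.7 FPKM in Wnk1d/d replicate 4 against 11 to 12.4 FPKM. Rsph1, an oviduct marker, was 2.47 FPKM in Wnk1f/f replicate 4 against 4.27 to 4.53 FPKM. The ovary marker Cyp11a1, a steroid-making enzyme, was 3.47 FPKM in Wnk1f/f replicate 3 against 0.27 to 0.42 FPKM in the other controls, and 13.9 FPKM in Wnk1d/d replicate 3 against 0.36 to 4.23 FPKM in the other knockouts.

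Of the liver markers, 4 stood out in Wnk1f/f replicate 4, and they are not independent of each other. Alb was 77.7 FPKM there against 0.090 to 1.5 FPKM in the other controls, Apoa1 10.3 FPKM against 0.12 to 0.68 FPKM, Apoa2 37.9 FPKM against 0.47 to 2.69 FPKM, and Fgb 5.90 FPKM against 0 to 0.12 FPKM.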

How the results depend on the processing

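Under all alternatives that could be fitted, Hoxa9, Hoxa10, Hoxa11, Hoxd10, Hoxd11 and Msx2 kept their direction. The replicate block, whose numbers do not pair mice, gave 220 called genes in place of 3249, and 0 members higher and 0 lower. Of the called genes named from the other lists, Hhex, Fgf1, Lum and Col6a3 passed with that block and the others did not. With mean FPKM above 5 Msx2 was not tested, so that 0 members were higher. Leaving out a library gave 1739 to 4216 called genes, with the lowest counts without Wnk1f/f replicate 4 (1739), Wnk1d/d replicate 3 (1800) and Wnk1d/d replicate 5 (2051), 0 to 2 members higher and 4 to 5 lower. The cause was not tested.

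The values below changed sign under some alternative, and none of them was called. They include Hoxa5 with library weights (0.0406) and over the libraries left out (log2 fold change -0.12 to 0.0969), Hoxa2 over the libraries left out (-0.0922 to 0.0709), and the ratios Msx2 over Msx1 (without Wnk1f/f replicate 2, -0.0265; range over the libraries left out up to 0.313, and 0.458 with a pseudocount of 0.1) and Hoxa10 over Hoxa9 (without Wnk1f/f replicate 3 -0.00331, without Wnk1f/f replicate 4 -0.0240, without Wnk1d/d replicate 3 -0.0203; up to 0.0367). Over all alternatives the signs also changed for Pgr (-0.0017 to 0.24), Dcn (-0.03 to 0.27) and Krt18 (-0.23 to 0.05), none of which passed under any. The cause was not tested. Scaling moved the median of all genes by less than 0.1. Depth is unknown, bulk tissue mixes cell types, and strand is not stated.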
